A study of Mus musculus with 288 samples.

Results

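MDP (muramyl dipeptide) is the ligand of the cytosolic receptor NOD2, and the wells described here are those that received MDP alone in a plate-based study of mouse macrophages. Their sample names carry MDP and a time, and they lie in plate column 9. They number 24 of the 288 wells of the series. Wells that received MDP together with LPS were not included. The macrophages were grown from C57BL/6 bone marrow of 12-week-old mice for 7 days with M-CSF and were then kept for 24 h with dCA (100 nM), BRD-6989 (1 µM) or DMSO. The labels call dCA and BRD-6989 CDK8 inhibitors. MDP wells were collected at 15, 30, 45, 60, 90, 120, 150 and 180 min on each of the 3 plates, 1 well per plate and time. The 24 unstimulated wells (NoStim) of the same plates and times, in plate column 1, are their reference. Pretreatment is the same thing as plate, and stimulus the same thing as column, so plate or column effects and biological effects cannot be told apart. The labels name no separate cultures or animals, so every p-value measures the spread between wells, which may be technical. The MDP dose is not given in the labels, which list MDP among TLR ligands. In bulk wells, fewer cells and less RNA per cell cannot be told apart.

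NOD2 senses fragments of bacterial peptidoglycan inside the cell. It recruits the kinase RIPK2, which leads through the TAK1 and IKK kinases to NF-kB and MAP kinase activation. NF-kB then induces its own inhibitor IkBa, encoded by Nfkbia, together with chemokines and cytokines. In macrophages MDP alone is known as a weak inducer of cytokines compared with ligands of Toll-like receptors.

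Gene expression was read as UMI counts (distinct molecular barcodes) by 3' digital gene expression, and 58 transcription factor reporters were read by sequence tag in the same wells (TF-seq). MDP wells held 43788 to 114906 UMI each, and NoStim wells 51040 to 125974. Rn45s, the ribosomal RNA precursor, took 33.4% to 60.6% of UMI in MDP wells and 39.1% to 60.3% in NoStim wells. Reporter totals ran from 895 to 3527 in MDP wells and from 716 to 1478 in NoStim wells. All 19 macrophage identity genes in the table had UMI in both groups, with a summed level of 6446 to 10558 CPM (UMI per 1e+06, scaled by TMM) in MDP wells and 5478 to 8554 CPM in NoStim wells. The median summed level of T cell, B cell, neutrophil, mast cell, dendritic cell and fibroblast markers was 0 CPM in both groups. Cd3e, Elane, Cpa3, Flt3 and Col1a1 were at 0 UMI in all 48 of these wells. Other members of these lists had UMI in both groups, among them Cd3d, S100a8, Ngp, Xcr1, Siglech and Col1a2. The highest summed level in any MDP well was 14.3 CPM for T cell, 20.7 CPM for B cell and 104 CPM for neutrophil markers. It was 0 CPM for mast cell, 64.2 CPM for dendritic cell and 10.4 CPM for fibroblast markers. In NoStim wells these maxima were 36.0, 0, 65.6, 0, 79.6 and 11.8 CPM in the same order. The erythroid and megakaryocyte list summed to 186 to 703.3 CPM in MDP wells and 126 to 607 CPM in NoStim wells, with all hemoglobin genes of the list at 0 UMI. Wells of the same position on the 3 plates carried the same well tag. Stimulus and time were first fitted within each plate, which takes out an effect shared by a whole column. The remaining deviations correlated between plates at 0.02 to 0.11 over 635 genes and at 0.05 to 0.19 over the reporters. The part of shared positions in the results was tested by summing counts over the plates.

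The genes that rose with MDP on the DMSO plate included Nfkbia (chromosome 12, 55489409 to 55492647, GRCm38.p6), the chemokine gene Cxcl2 (chromosome 5, 90903899 to 90905938) and Sdc4, which encodes a heparan sulfate proteoglycan (chromosome 2, 164424247 to 164443188). The 250 bases before their annotated starts are shown because these genes passed the test on that plate at 60 to 180 min and each region holds a match to the NF-kB consensus, in capitals. The sequences are from RefSeq (GRCm38.p6), 5′ to 3′ on the strand of the gene: chr12:55492648-55492897 (minus strand), chr5:90903649-90903898 (plus strand) and chr2:164443189-164443438 (minus strand).
Nfkbia: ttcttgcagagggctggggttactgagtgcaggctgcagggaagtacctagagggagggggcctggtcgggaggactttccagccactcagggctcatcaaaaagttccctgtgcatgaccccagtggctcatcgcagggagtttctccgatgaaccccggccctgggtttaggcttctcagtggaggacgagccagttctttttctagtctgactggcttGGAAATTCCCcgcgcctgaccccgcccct
Cxcl2: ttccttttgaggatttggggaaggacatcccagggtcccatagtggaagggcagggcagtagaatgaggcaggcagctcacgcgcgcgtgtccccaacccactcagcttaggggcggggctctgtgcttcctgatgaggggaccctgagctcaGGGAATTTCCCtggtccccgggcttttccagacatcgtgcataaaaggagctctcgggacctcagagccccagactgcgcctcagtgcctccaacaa
Sdc4: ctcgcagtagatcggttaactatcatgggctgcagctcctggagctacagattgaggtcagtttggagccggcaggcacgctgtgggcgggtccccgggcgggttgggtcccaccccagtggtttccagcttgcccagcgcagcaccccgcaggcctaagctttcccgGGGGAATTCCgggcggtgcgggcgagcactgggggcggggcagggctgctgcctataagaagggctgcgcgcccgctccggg
The 10-base consensus was searched on both strands. In Nfkbia the match lay at bases -29 to -20 before the start and was read on the opposite strand. In Cxcl2 a match on each strand overlapped, at bases -97 to -88 and -96 to -87. In Sdc4 it lay at bases -82 to -73. Of 32851 annotated promoters, 7.25% held such a match within 250 bases, and among 5604 promoters of genes tested here 8.89% did. For Tnfaip2 (chromosome 12, 111442450 to 111455018) the window was 111442411 to 111442660, which runs past the annotated gene start. It held 1 match on the opposite strand, at bases -24 to -15 counted from the end of the window. This match lies inside the annotated gene, not before it, and the sequence is not shown. Itsn1 (chromosome 16, 91729310 to 91920591) held 0, in a window (91729121 to 91729370) that also runs past its annotated start.

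Over the 5 later times, 60 to 180 min, few transcripts were called as changed with MDP at this depth. Nfkbia and Tnfaip2 rose, Itsn1 fell, and no other gene passed the test when all 3 plates were pooled. Tnfaip2 is a TNF-induced gene that NF-kB is known to control, and Itsn1 encodes an endocytic scaffold protein. The fit compared 15 MDP wells with 15 NoStim wells, with plate and time as factors (edgeR quasi-likelihood test, Benjamini-Hochberg threshold of 0.05). Genes averaging 1 UMI or more over the wells of the fit were tested, and 3 of 5802 were called (0.0517%), 2 higher (0.0345%) and 1 lower (0.0172%). A total of 331 genes had an unadjusted p under 0.05.

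Nfkbia had 644, 1514, 775, 594 and 1009 CPM at 60, 90, 120, 150 and 180 min with MDP on the DMSO plate, against 157, 197, 188, 398 and 295 CPM without a stimulus. On the dCA plate the MDP wells had 224, 304, 455, 357 and 291 CPM, against 135, 18.0, 118, 249 and 82.9 CPM in NoStim wells. On the BRD-6989 plate they had 139, 268, 418, 307 and 280 CPM, against 112, 0, 94.3, 27.2 and 156 CPM. Each MDP well was above the NoStim well of its plate and time, in 15 of 15 pairs. The groups did not overlap on the DMSO plate, and on each of the other plates the MDP well of 60 min lay within the NoStim range. The pooled log2 difference was 1.69 ± 0.22 (SE, adjusted p = 1.73e-10, edgeR). With all 8 times in the fit it was 1.05 ± 0.27 and the call was lost (adjusted p = 0.400, edgeR). At 15 to 45 min the MDP well was the higher one in 3 of 9 pairs.

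Tnfaip2 had 203, 428, 506, 872 and 539 CPM at the 5 later times with MDP on the DMSO plate, against 42.9, 98.4, 43.3, 146 and 228 CPM in NoStim wells. MDP wells of the dCA plate had 200, 107, 157, 255 and 61.2 CPM, against 85.7, 0, 247, 27.7 and 59.2 CPM. MDP wells of the BRD-6989 plate had 257, 208, 170, 442 and 352 CPM, against 261, 48.9, 283, 109 and 145 CPM. The groups overlapped on the dCA and BRD-6989 plates, and on the DMSO plate only the MDP well of 60 min fell within the NoStim range. MDP was the higher in 12 of 15 pairs, with a log2 difference of 1.28 ± 0.27 (adjusted p = 0.00867, edgeR). Without the DMSO plate it was 1.00 ± 0.37 and the call was lost (adjusted p = 0.896, edgeR), and without 90 min or without 150 min the adjusted p was 0.127 or 0.366 (edgeR).

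Itsn1 had a median of 193 CPM (82.9 to 423) in MDP wells and 386 CPM (114 to 702.8) in NoStim wells, and 13 of 15 pairs were lower with MDP. The ranges overlapped, and the log2 difference was -0.96 ± 0.21 (adjusted p = 0.0101, edgeR). Itsn1 averaged 215 ± 107 CPM with MDP, 239 ± 201 CPM with LPS, 238 ± 129 CPM with Pam3cys and 231 ± 136 CPM with TDB, against 412 ± 163 CPM in NoStim wells (SD, n = 15 each). At 15 to 45 min MDP was the lower in 4 of 9 pairs. The call was lost when any 1 plate was left out (adjusted p = 0.146 to 0.268, edgeR), when 60, 90 or 180 min was left out (adjusted p = 0.127 to 0.226, edgeR) and when counts were summed over the plates at each position (adjusted p = 0.0540, edgeR).

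**Figure D1:**
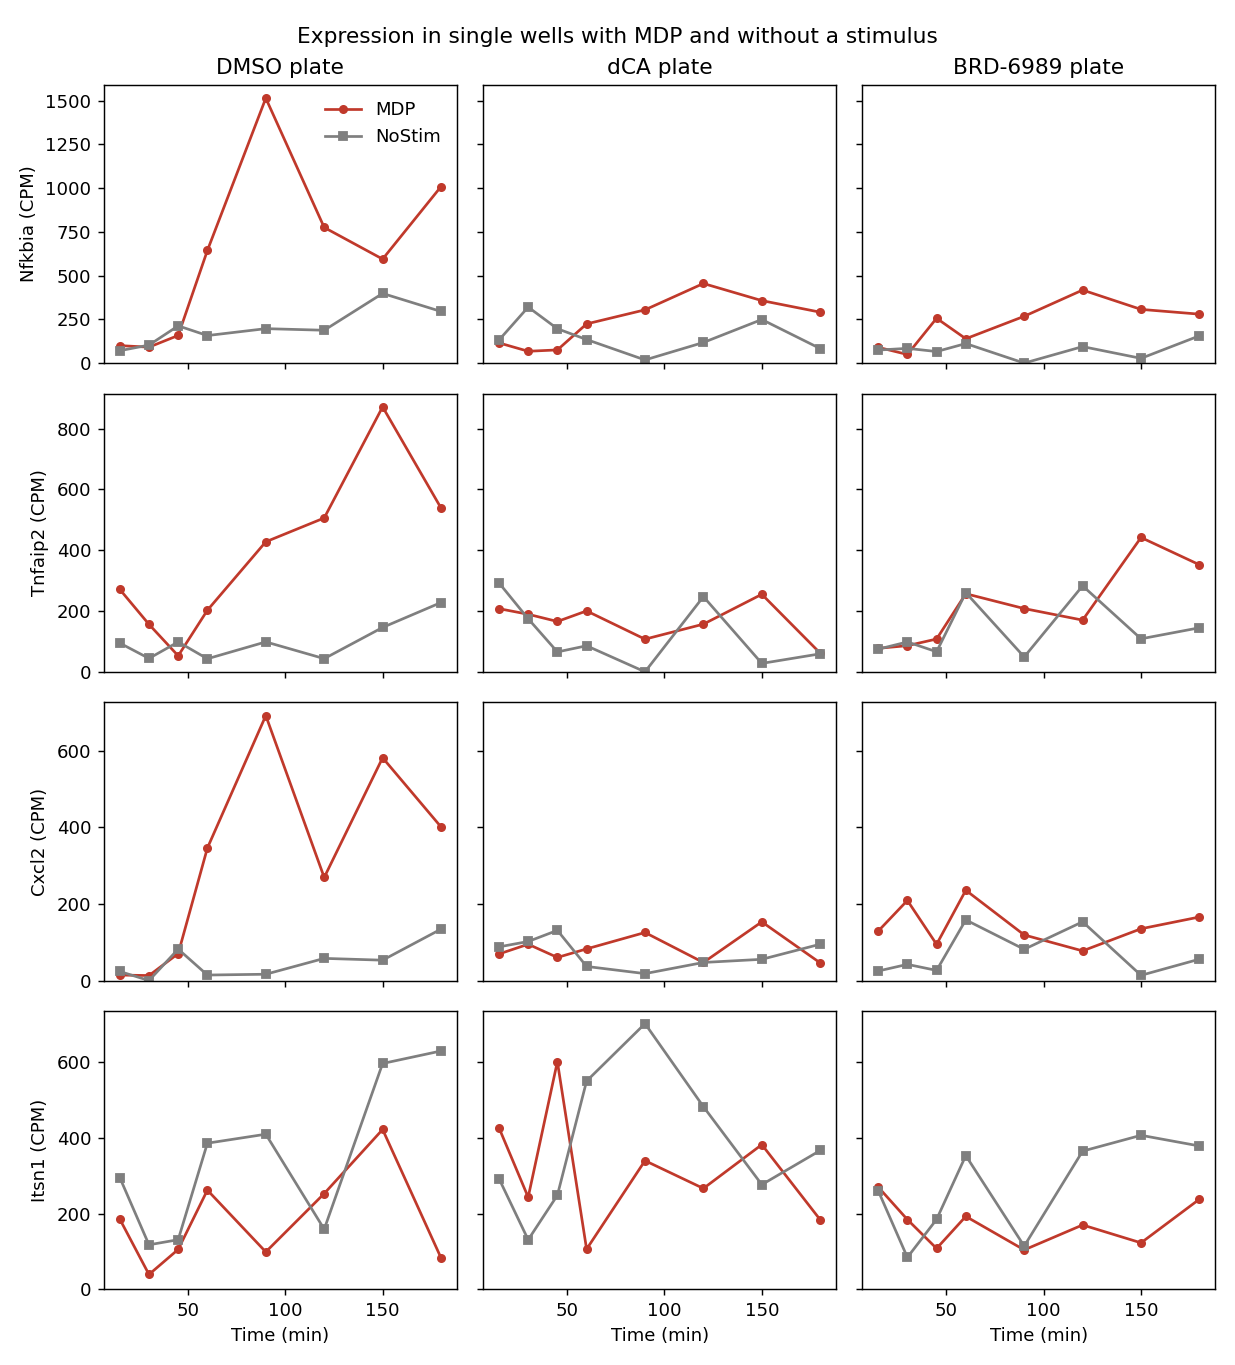
Level in CPM of Nfkbia, Tnfaip2, Cxcl2 and Itsn1 (rows) against time in minutes on the DMSO, dCA and BRD-6989 plates (columns), 1 point per well, MDP in red and NoStim in grey. Nfkbia of the DMSO plate peaks at 1514 CPM at 90 min with MDP, and Itsn1 is lower with MDP in 13 of 15 pairs of 60 to 180 min.

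Cxcl2, which encodes a neutrophil chemokine, stood just outside the threshold in the pooled fit, at a log2 difference of 1.47 ± 0.35 (adjusted p = 0.0507, edgeR) with MDP higher in 12 of 15 pairs. On the DMSO plate it had 346, 691, 269, 581 and 401 CPM in MDP wells, against 14.3, 16.4, 57.8, 53.1 and 134 CPM in NoStim wells, with no overlap. On the dCA plate MDP wells ran from 45.9 to 153 CPM, against 18.0 to 94.8 CPM in NoStim wells. On the BRD-6989 plate they ran from 77.3 to 236 CPM, against 13.6 to 158 CPM. Only the DMSO plate separated the groups. In the fit with the 15 pairs of plate and time as a replicate block Cxcl2 was called, at 1.59 ± 0.37 (adjusted p = 0.0244, edgeR).

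Among 26 tested NF-kB feedback and target genes, a list that holds IkB proteins, A20 and survival genes, 2 rose and 0 fell with MDP, and the median log2 difference was 0.41, beside -0.03 over all genes tested. The 17 other positive differences of the list did not pass the test. Over all genes tested 0.0345% rose, and the list was chosen with earlier results of these data known. Nfkb2, the p100 subunit gene, had 51 UMI in 7 of 15 MDP wells and 4 UMI in 4 of 15 NoStim wells, at 2.83 ± 0.91 (adjusted p = 0.547, edgeR), and Tnfaip3, which encodes A20, had 0.08 ± 0.37 (adjusted p = 0.998, edgeR). Nfkbiz, the IkB-zeta gene, averaged 94.8 ± 81.4 CPM with MDP and 89.3 ± 112 CPM without a stimulus (SD, n = 15 each).

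Chemokines gave 0 calls among 12 tested (median log2 difference 0.28). Ccl4, a monocyte chemokine gene, averaged 192 ± 75.0 CPM with MDP and 160 ± 81.8 CPM without a stimulus, and the ranges overlapped. Cytokines gave 0 calls among 6 tested (median 0.41). Tnf averaged 68.3 ± 43.9 CPM with MDP and 77.3 ± 47.0 CPM without. Il1b had 19 UMI in 15 MDP wells and 12 UMI in 15 NoStim wells. Il6 had 1 UMI in each group and Il10 had 6 UMI with MDP and 1 UMI without, counts too low for a test. Interferon response genes gave 0 calls among 43 (median -0.15), cholesterol synthesis genes 0 among 19, glycolysis and hypoxia genes 0 among 19, and stress genes 0 among 12. With 0.0517% of all genes called, 0 calls are what lists of this size would give, and nothing is read from them about these lists.

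The NOD2 pathway itself was sparsely read. Nod2, the receptor gene, had 3 UMI in 15 MDP wells and 9 UMI in 15 NoStim wells. Ripk2, the kinase gene downstream of it, had 8 UMI with MDP and 12 UMI without. Of 27 pathway genes 11 could be tested, and 0 were called in either direction (median log2 difference -0.05). With 0.0517% of all genes called, nothing is read from that count. Tab2, an adaptor of the TAK1 kinase, had 145 UMI with MDP and 121 UMI without, and Slc15a3, an endolysosomal peptide transporter gene, had 71 UMI with MDP and 89 UMI without. At these counts a change of the receptor or its kinase was not detectable.

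**Figure D2:**
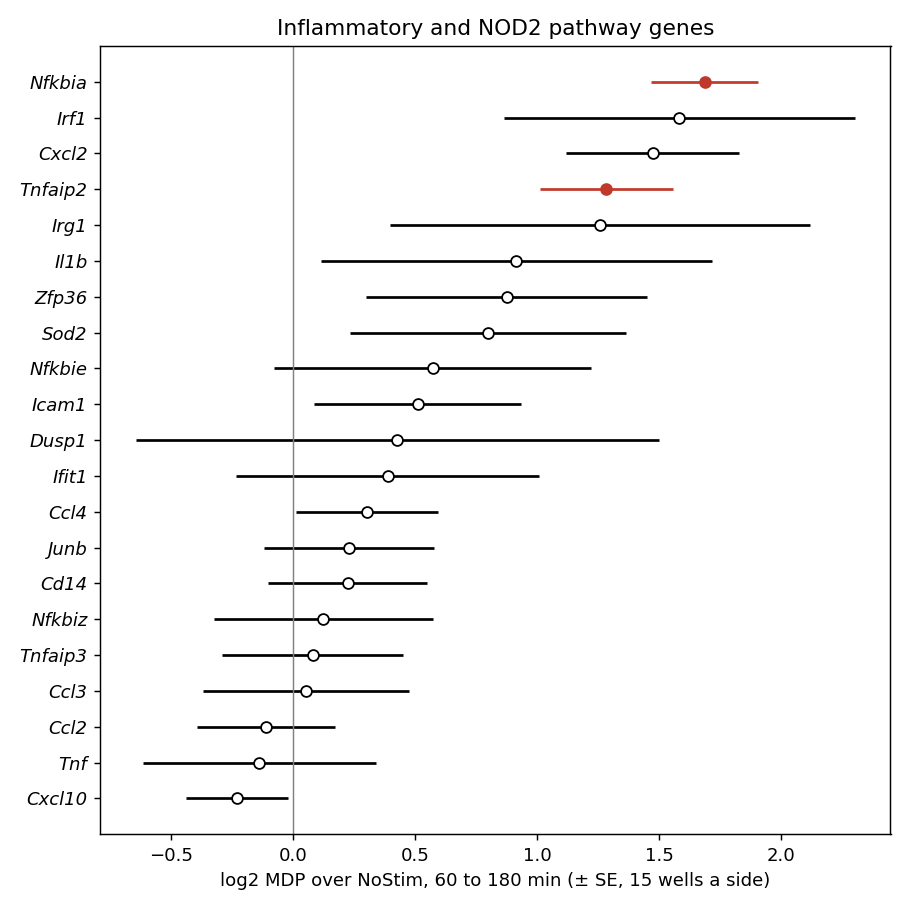
Log2 difference of MDP over NoStim, 60 to 180 min, with SE (15 wells a side, edgeR), for the genes of a fixed set of 31 inflammatory and NOD2 pathway genes that passed the filter on low counts. Filled red points are Nfkbia and Tnfaip2, which passed the threshold; open points such as Cxcl2 at 1.47 did not.

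The early times, 15 to 45 min, gave 0 calls among 5725 genes (0%) in 9 MDP against 9 NoStim wells (edgeR), with 242 genes at an unadjusted p under 0.05. The smallest adjusted p was 0.0878, for Calm2, a calmodulin gene. For the difference between the later and the earlier response, 0 of 5790 genes were called and Nfkbia had the smallest adjusted p, with 1.98 ± 0.44 (adjusted p = 0.0897, edgeR). At single times, with 3 wells a side, Nfkbia was called at 90 min at 3.21 ± 0.60 (adjusted p = 0.000965, edgeR) and was the 1 gene called at 90 min, of 5790 (0.0173%). Its differences were 1.07 ± 0.54 at 60 min, 2.03 ± 0.54 at 120 min, 1.05 ± 0.52 at 150 min and 1.47 ± 0.52 at 180 min, none of them called. At 30 min it was -1.35 ± 0.60 (adjusted p = 0.900, edgeR). The NoStim wells of 90 min held 12, 1 and 0 UMI of Nfkbia on the DMSO, dCA and BRD-6989 plates. On the dCA and BRD-6989 plates these were the lowest NoStim wells. The MDP wells of those plates were higher at 120 min (455 and 418 CPM) than at 90 min (304 and 268 CPM). In the same fit Fnip2, a folliculin-binding protein gene, was lower at 120 min, at -2.87 ± 0.63 (adjusted p = 0.0456, edgeR), and Hspa9, a mitochondrial chaperone gene, was lower at 180 min, at -2.99 ± 0.43 (adjusted p = 1.15e-07, edgeR). Hspa9 had 8, 19 and 16 UMI at 180 min in the MDP wells of the DMSO, dCA and BRD-6989 plates, against 130, 167 and 77 UMI in the NoStim wells. That NoStim position was high on all 3 plates, beside 4 to 51 UMI in the other NoStim wells. Fnip2 had 4, 6 and 2 UMI at 120 min with MDP in the same plate order, against 37, 43 and 27 UMI without. Those NoStim wells were the highest of the DMSO and dCA plates. On the BRD-6989 plate the NoStim wells of 15 and 180 min were higher, at 32 and 29 UMI.

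Within the DMSO plate, where no inhibitor was present, MDP raised 4 of 5629 genes (0.0711%) and lowered 0 (5 wells a side, time as a factor). Cxcl2 rose by 3.08 ± 0.51 (adjusted p = 1.06e-05), Tnfaip2 by 2.24 ± 0.44 (adjusted p = 0.000649), Nfkbia by 1.83 ± 0.32 (adjusted p = 3.91e-05) and Sdc4 by 1.28 ± 0.29 (adjusted p = 0.0170) on the log2 scale (edgeR). Sdc4 had 703.3, 790, 981, 977 and 1617 CPM in MDP wells, against 572, 230, 520, 478 and 268 CPM in NoStim wells. Every MDP well of these times was above every NoStim well. At 15, 30 and 45 min Sdc4 had 2328, 534 and 562 CPM in MDP wells of that plate, against 556, 382 and 885 CPM in NoStim wells, so its highest MDP well was that of 15 min. The Sdc4 call was lost when the wells of 90, 120, 150 or 180 min were left out, and the Tnfaip2 call when those of 120 or 150 min were. Irf1, a transcription factor gene, was higher with MDP in 5 of 5 pairs of the DMSO plate but did not pass, at 4.15 ± 1.21 (adjusted p = 0.549, edgeR).

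Within the dCA plate 0 of 5606 genes were called, with 108 at an unadjusted p under 0.05, and within the BRD-6989 plate 0 of 6211, with 160 (edgeR). Nfkbia differed by 1.58 ± 0.49 on the dCA plate and by 1.92 ± 0.50 on the BRD-6989 plate, each higher in 5 of 5 pairs and each short of the threshold (adjusted p = 0.999 and 0.455, edgeR). Tnfaip2 differed by 1.25 ± 0.74 with dCA and by 0.83 ± 0.42 with BRD-6989. Cxcl2 differed by 0.82 ± 1.00 with dCA and by 0.82 ± 0.62 with BRD-6989. Sdc4 differed by 0.14 ± 0.31 with dCA and by -0.06 ± 0.25 with BRD-6989.

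Whether the response to MDP differed between pretreatments was tested directly, in 3 comparisons over 5802 genes and in a joint test. None gave a call (0%), with 298 to 357 genes at an unadjusted p under 0.05 (edgeR). The Nfkbia response in dCA minus that in DMSO was -0.47, with a 95% interval of -1.49 to 0.55, and in BRD-6989 minus DMSO -0.14, with an interval of -1.27 to 0.99. For Cxcl2 the differences were -2.16 (-3.87 to -0.46) for dCA minus DMSO and -2.38 (-4.01 to -0.76) for BRD-6989 minus DMSO. For Sdc4 they were -1.12 (-1.86 to -0.38) and -1.34 (-2.07 to -0.61) in the same order. These intervals are for single genes, and after adjustment over all genes the p-values of Cxcl2 and Sdc4 were 0.415 to 0.740 (edgeR). Sdc4 was named because it rose on the DMSO plate, and Cxcl2 was also called there. The same DMSO wells enter each difference from DMSO, which favours a negative value in advance. For Cxcl2 and Sdc4 these intervals are therefore no independent test of the inhibitors. Between dCA and BRD-6989 the difference of the Nfkbia response was -0.33 (-1.37 to 0.72) and that of Cxcl2 was 0.22 (-1.38 to 1.82), intervals wide enough to hold changes of either sign.

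The NF-kB reporter, NFkB_1, gave the clearest response to MDP. Its share of reporter counts on the DMSO plate was 7.87%, 3.13% and 8.11% at 15, 30 and 45 min with MDP, then 16.2% at 60 min, 24.95% at 90 min, 28.1% at 120 min, 29.0% at 150 min and 29.6% at 180 min. The NoStim wells of that plate had 4.40%, 5.32%, 5.46%, 5.47%, 4.45%, 5.10%, 9.42% and 5.17% at the same times. On the dCA plate the share at 60 to 180 min was 3.54%, 7.52%, 9.46%, 11.8% and 13.4% with MDP, against 3.36%, 2.30%, 1.47%, 5.07% and 4.03% without. On the BRD-6989 plate it was 3.36%, 7.15%, 8.37%, 11.2% and 13.9% with MDP, against 3.13%, 3.07%, 1.85%, 4.64% and 5.56% without. At 60 min the MDP well stood apart from the NoStim well on the DMSO plate alone. From 90 min on, MDP wells of each plate were above all of that plate's NoStim wells of 60 to 180 min.

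In the pooled fit NFkB_1 rose by 1.76 ± 0.17 (adjusted p = 9.83e-12, edgeR). It was 1 reporter called higher of 58 (1.72%), and 3 were lower (5.17%; 4 in all, 6.9%). It passed at 90, 120, 150 and 180 min taken singly, at 1.98 ± 0.39, 2.60 ± 0.39, 1.53 ± 0.35 and 1.93 ± 0.35 (adjusted p = 1.72e-07 to 0.00181, edgeR), and not at 60 min (0.85 ± 0.39, adjusted p = 0.441). At 15 to 45 min 0 of 58 reporters were called (edgeR), with 2 at an unadjusted p under 0.05. It rose within each plate, by 2.34 ± 0.25 on the DMSO plate (adjusted p = 7.11e-10), by 1.56 ± 0.30 on the dCA plate (adjusted p = 0.0308) and by 1.33 ± 0.21 on the BRD-6989 plate (adjusted p = 2.82e-06, edgeR). On the dCA plate the call was lost when counts were scaled to UMI totals (2.35, adjusted p = 0.435, edgeR). The calls were 5 of 58 on the DMSO plate (8.62%; 2 higher, 3.45%) and 1 of 58 on each other plate. The response in dCA minus that in DMSO was -0.86 (95% interval -1.56 to -0.16, adjusted p = 0.234) and in BRD-6989 minus DMSO -1.06 (-1.76 to -0.35, adjusted p = 0.0770, edgeR), neither past the threshold over 58 reporters. Between dCA and BRD-6989 it was 0.20 (-0.52 to 0.91).

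**Figure D3:**
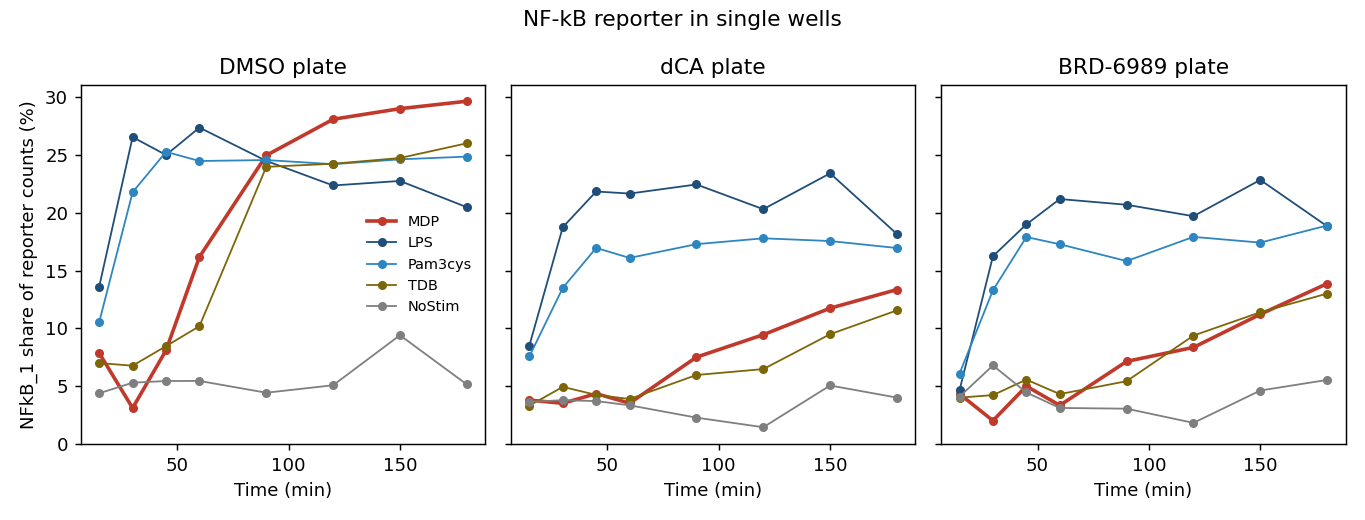
Share of reporter counts taken by NFkB_1 (percent) against time in minutes, 1 point per well, on each plate, for MDP, LPS, Pam3cys, TDB and NoStim. With MDP the share reaches 29.6% on the DMSO plate at 180 min, 13.4% on the dCA plate and 13.9% on the BRD-6989 plate; at 30 min it is 3.13% with MDP and 26.5% with LPS on the DMSO plate.

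All reporters gave more counts with MDP when the wells of 60 to 180 min were summed. At 60 min alone the reporter total was higher with MDP on the DMSO plate (1168 against 823). It was lower with MDP on the dCA plate (1129 against 1308) and on the BRD-6989 plate (923 against 1021). Summed over the 5 wells, the ratio of MDP to NoStim counts was above 1 for 58 of 58 reporters on each plate, with a median of 2.90 on the DMSO plate, 1.51 on the dCA plate and 1.56 on the BRD-6989 plate. For NFkB_1 the ratio was 15.7, 4.85 and 4.44 on these plates. A fit scaled to the reporters' own totals therefore shows each reporter relative to the others. On that scale AP1_33 fell by 0.38 (adjusted p = 0.0113, edgeR) and CLOCK_30 fell by 0.31 (adjusted p = 0.0236, edgeR), but scaled to UMI totals they were at 0.53 and 0.61. On the DMSO plate NRF2_4 fell by 1.08 (adjusted p = 2.91e-05, edgeR), but was at 0.31 when scaled to UMI totals. IFNB1_44 rose there by 0.75 ± 0.20 (adjusted p = 0.00975, edgeR), and was at 2.20 on the UMI scale. The NoStim wells held only 6 to 13 IFNB1_44 counts, and the shares overlapped (1.28% to 2.30% with MDP, 0.73% to 1.82% without). In the pooled fit the median of all reporters on the UMI scale was 0.96, and NFkB_1 was at 2.67. The cells' reporter RNA and the efficiency of reading it were not separated here.

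**Figure D4:**
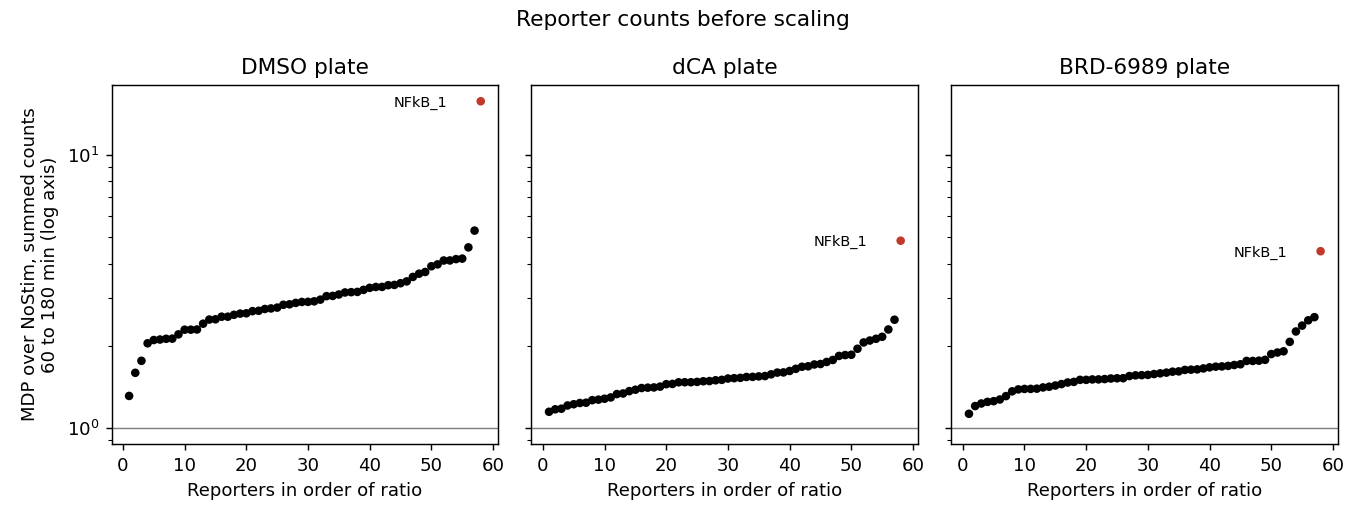
Ratio of MDP to NoStim counts for each of 58 reporters, summed over the 5 wells of 60 to 180 min per plate (log axis), in order of ratio. Every point is above 1, and NFkB_1, in red, is the highest at 15.7, 4.85 and 4.44 on the DMSO, dCA and BRD-6989 plates.

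Compared with ligands of Toll-like receptors, MDP wells had lower levels of inflammatory genes. The comparisons with LPS (a TLR4 ligand) and Pam3cys (a lipopeptide ligand of TLR2) used 15 wells a side of 60 to 180 min and share the MDP wells. Against LPS 167 of 5566 genes were called (3%), 20 higher with MDP (0.359%) and 147 lower (2.64%, edgeR). Against Pam3cys 51 of 5663 were called (0.901%), 5 higher (0.0883%) and 46 lower (0.812%). With counts summed over the plates at each position 106 genes were called against LPS, and with total read counts 30 were called against Pam3cys. Ccl4 averaged 192 ± 75.0 CPM with MDP, against 3459 ± 754 CPM with LPS and 1141 ± 353 CPM with Pam3cys (SD, n = 15 each), and no MDP well reached the lowest well of either. The log2 differences were -4.15 ± 0.12 and -2.54 ± 0.15 (adjusted p = 1.06e-133 and 5.64e-60, edgeR).

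Genes that MDP induced were among those lower than with LPS. Nfkbia averaged 505 ± 363 CPM with MDP, against 2299 ± 533 CPM with LPS and 1752 ± 262 CPM with Pam3cys, and was lower in 15 of 15 pairs with each. Tnfaip2 averaged 317 ± 211 CPM with MDP, against 2102 ± 737 CPM with LPS and 1518 ± 547 CPM with Pam3cys. Cxcl2 averaged 232 ± 195 CPM with MDP, against 1694 ± 1382 CPM with LPS and 1194 ± 724 CPM with Pam3cys, and was lower in 14 of 15 pairs with each.

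By list, MDP wells were lower than LPS wells for 14 of 29 tested NF-kB feedback and target genes, 12 of 17 chemokines, 4 of 7 cytokines and 22 of 48 interferon response genes, with medians of -1.42, -2.77, -2.50 and -1.57 beside 0.09 over all genes. Against Pam3cys the counts were 11 of 29, 8 of 15, 2 of 5 and 0 of 43. The medians were -1.16, -1.73, -1.56 and 0.01, beside 0.02 over all genes. Over all genes tested 2.64% were called lower with MDP against LPS and 0.812% against Pam3cys. The lists were chosen with earlier results of these data known, so their counts are no independent test. The number called higher with MDP was 0 in each of these lists, although 22 of the 43 interferon response genes had positive differences against Pam3cys. Over all genes tested 0.359% were called higher against LPS and 0.0883% against Pam3cys, so 0 is what lists of this size would give. Rsad2, an antiviral interferon-induced gene, averaged 179 ± 84.3 CPM with MDP, against 4319 ± 3473 CPM with LPS and 165 ± 79.8 CPM with Pam3cys. Il1b averaged 16.8 ± 22.4 CPM with MDP, against 383 ± 225 CPM with LPS and 160 ± 152 CPM with Pam3cys. Socs3, a feedback inhibitor of cytokine signalling, averaged 14.3 ± 22.8 CPM with MDP, against 250 ± 86.0 CPM with LPS and 96.3 ± 90.2 CPM with Pam3cys. Csf1r, the receptor gene for M-CSF, was higher with MDP than with LPS (484 ± 144 against 313 ± 120 CPM, 0.64 ± 0.19, adjusted p = 0.0283, edgeR), and so was Sqle, a cholesterol synthesis gene (2.49 ± 0.76, adjusted p = 0.0383, edgeR). Neither was called against NoStim wells. Csf1r had 543 UMI with MDP, 528 UMI without a stimulus and 341 UMI with LPS, and Sqle had 60, 60 and 9 UMI.

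**Figure D5:**
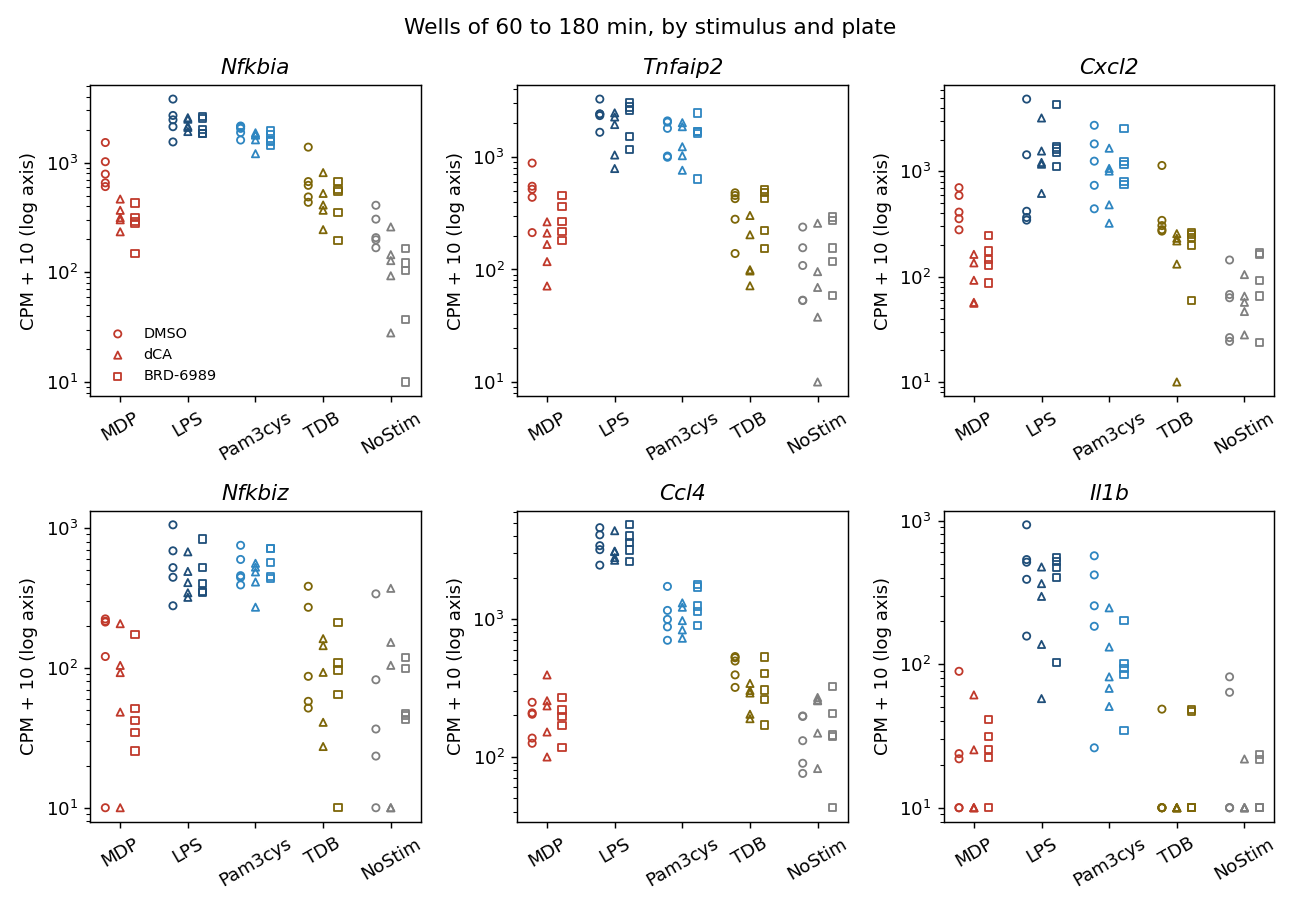
Level of 6 genes in single wells of 60 to 180 min, as CPM + 10 on a log axis, for MDP, LPS, Pam3cys, TDB and NoStim, with circles for the DMSO plate, triangles for dCA and squares for BRD-6989. Ccl4 wells with MDP lie below every LPS and Pam3cys well, and MDP and TDB wells overlap for each gene shown.

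TDB is a glycolipid ligand of the receptor Mincle. Against TDB, of 5677 genes 1 was called (0.0176%), Mki67, a proliferation marker, lower with MDP. Mki67 averaged 226 ± 183 CPM with MDP and 468 ± 288 CPM with TDB (SD, n = 15 each), a log2 difference of -1.09 ± 0.21 (adjusted p = 0.000643, edgeR), and MDP was the lower in 12 of 15 pairs. In NoStim wells it averaged 450 ± 256 CPM. With total read counts this call was lost (adjusted p = 0.336, edgeR). Nfkbia differed between MDP and TDB by -0.23 (95% interval -0.54 to 0.09), Tnfaip2 by 0.11 (-0.32 to 0.54) and Cxcl2 by -0.26 (-0.75 to 0.22).

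NFkB_1 on the DMSO plate was at 3.13% with MDP at 30 min, against 26.5% with LPS, 21.8% with Pam3cys and 6.78% with TDB. At 180 min it was at 29.6% with MDP, against 20.5% with LPS, 24.8% with Pam3cys and 26.0% with TDB. The order of the shares is not that of the counts: at 180 min NFkB_1 had 1045 counts with MDP, against 1044 with LPS, 1044 with Pam3cys and 490 with TDB. Over 60 to 180 min on that plate it had a median of 875 counts (189 to 1045) with MDP, against 1393 (1044 to 1610) with LPS and 1090 (846 to 1231) with Pam3cys. On the dCA plate at 180 min MDP wells had 13.4%, against 18.2%, 16.9% and 11.6%, and on the BRD-6989 plate 13.9%, against 18.8%, 18.9% and 13.0%. Over 60 to 180 min and all plates NFkB_1 was lower with MDP than with LPS and Pam3cys, at log2 differences of -0.97 ± 0.22 and -0.70 ± 0.17 (adjusted p = 0.000140 and 0.000789, edgeR), and differed from TDB by 0.18 ± 0.08 (adjusted p = 0.315). The mean share was lower with MDP on the dCA plate (9.13%, against 21.2% with LPS and 17.1% with Pam3cys). It was also lower on the BRD-6989 plate (8.79%, against 20.6% and 17.5%). On the DMSO plate it was not, at 25.6% with MDP, 23.5% with LPS and 24.5% with Pam3cys. Against LPS 15 of 58 reporters were called (25.9%; 6 higher, 10.3%, and 9 lower, 15.5%). IFNB1_44 was lower, at -1.41 ± 0.10, and so was ISRE_54, an interferon response element reporter, at -0.64 ± 0.10. NRF2_4 was higher relative to the other reporters, at 1.30 ± 0.09, but at -0.14 (adjusted p = 0.468, edgeR) when scaled to UMI totals, where 57 of 58 reporters were called lower with MDP.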

How the data were processed

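The authors deposited UMI counts and total read counts per gene from 3' digital gene expression, and counts of 58 reporters from TF-seq. The tools BWA and edgeR and the build mm10 come from the submitters' processing notes, which name no version; how reads were assigned to genes is not stated there. The deposited file of normalized reporter values equals the reporter counts and was not used.

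Genes averaging 1 UMI or more over the wells of a fit were tested with edgeR 4.0.16 (TMM, library sizes with Rn45s, quasi-likelihood test; R 4.3.3) and reporters with a mean of at least 5 counts likewise. Some features that counts and fits include are not reported here by name. Plate and time entered as factors, and p-values were 2-sided and adjusted by Benjamini-Hochberg within each comparison. Intervals are 95% normal intervals from the fit. Genes were named by a rule: a fixed set of 31, up to 15 rises and 10 falls past the threshold with the direction in at least 11 of 15 pairs, 5 each way per other comparison, 2 each way per list and up to 6 reporters per comparison. The members and the 22 gene lists were chosen with earlier results of these data known. Fits at single times, reporter comparisons between stimuli, sums over positions and scaling of reporters to UMI totals were added after seeing the data. Fits were tested on simulated counts. MDP and NoStim wells of 1 plate and time did not deviate together (median correlation 0.01, over 0.1 in 3 of 15 pairs), so pairs were not the main design. DESeq2 1.42.0 and limma 3.58.1 were alternatives. Promoter and gene positions are from RefSeq tables of GRCm38.p6.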

Additional observations from a re-analysis of the deposited data

Results flagged for a closer look

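In groups of 5 wells of 60 to 180 min, 84 groups of values were tested for 1 well far from the other 4, and 5 stood out; chance gives about 1 in 20. Among MDP wells, IFNB1_44 on the BRD-6989 plate took 1.07% of reporter counts at 150 min, beside 1.53% to 1.65% in the other 4 wells. The other 4 were NoStim wells. The BRD-6989 NoStim well of 90 min was low for Itsn1, at 114 CPM beside 354 to 407 CPM. AP1_33 took 9.96% in the BRD-6989 NoStim well of 120 min, beside 7.21% to 7.73%. NFkB_1 took 9.42% in the DMSO NoStim well of 150 min, beside 4.45% to 5.47%. The DMSO NoStim well of 90 min had 4652 genes detected, beside 5174 to 5330.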

How the results depend on the processing

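The pooled comparison of MDP with NoStim called 3 genes. It called 5 with DESeq2, 1 with a mean of at least 5 UMI, 5 with the Rn45s share as a covariate, 6 without time in the model, 7 with all 12 conditions in the fit, 0 with all 8 times and 1 to 6 when 1 plate or 1 time was left out. With the replicate block of plate and time pairs it called 4, Cxcl2 (adjusted p = 0.0244, edgeR) being past the threshold there; these wells share only a plate and a time. Nfkbia was past the threshold in 18 of 19 alternatives, all but the fit of all 8 times (1.05, adjusted p = 0.400, edgeR), Tnfaip2 in 13, Itsn1 in 8 and Cxcl2, outside it in the main result, in 9. At 15 to 45 min 1 gene was called with total read counts and 0 to 2 with 1 plate left out. The DMSO plate gave 2 to 4 calls and the BRD-6989 plate 0 to 1 with 1 time left out. Against LPS 106 genes were called when positions were summed over plates; against Pam3cys 30 and against TDB 0 with total read counts. The replicate block of pairs left the counts against LPS, Pam3cys and TDB at 151, 46 and 1, and those of differences between pretreatments at 0. For reporters, 4 calls became 2 with all 8 times, 1 with positions summed, 1 to 5 with 1 plate or time left out, and 58 when scaled to UMI totals; with the replicate block there were 3. NFkB_1 was past the threshold in 14 of 14 alternatives. Scaled to UMI totals, calls were 50 on the DMSO plate, 0 on the dCA plate (NFkB_1 2.35, adjusted p = 0.435, edgeR) and 6 on the BRD-6989 plate, 57 against LPS, 57 against Pam3cys and 1 against TDB. On that scale the difference turned for AP1_33 (0.53) and CLOCK_30 (0.61) pooled, for NRF2_4 (0.31) and AP1_33 (0.70) on the DMSO plate, for NRF2_4 (-0.14) and AP1_33 (-0.95) against LPS, for NRF2_4 (-0.26) and AP1_33 (-0.79) against Pam3cys and for AP1_33 (0.048) against TDB. Leaving out 1 time gave 0 to 1 reporter calls for dCA minus DMSO and 0 to 4 for BRD-6989 minus DMSO. The causes were not tested beyond the number of wells and genes each fit held. Counts of low genes came in clumps: in genes with a mean of 0.05 to 0.3 UMI, 21.4% of nonzero well values were 3 or more.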
